A study of Mus musculus with 3 samples.

Results

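The comparison described here sets the posterior frontal suture of Runx2+/- mice at postnatal day 7 against the same suture of wild-type (Runx2+/+) mice of that age. The posterior frontal suture joins the 2 frontal bones of the mouse skull and is the one that closes after birth. All mice were C57BL/6, and total RNA of each group was labelled with Cy3 and hybridised to 1 array, so the series holds 3 arrays: wild type at day 5, wild type at day 7 and Runx2+/- at day 7. Neither the number of mice behind an array, nor their sex, nor the kind of Runx2 allele is given in the labels. Members of the comparison were the autosomal genes with a probe well above background, by the scanner software's own flag, on both day 7 arrays. These were 12335 of the 32722 autosomal genes with a probe, out of 34740 genes with a probe in all. Of the autosomal genes left out, 6038 were measured on the Runx2+/- array only, 196 on the wild-type array only, 39 by different probes on each, and 14114 on neither.

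Runx2 is a Runt-domain transcription factor that is required for osteoblasts to form. It acts as a heterodimer with Cbfb, binds a short DNA motif in the promoters of bone matrix genes, and loss of 1 copy causes cleidocranial dysplasia in humans, in which sutures and fontanelles close late. A suture is a strip of mesenchyme between bone fronts, and tissue cut from it also carries vessels, marrow and blood cells, nerve endings, dura and periosteum.

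Levels are given as the log2 of the processed signal minus the array's own 75th percentile, so that 0 is the 75th percentile, and differences are Runx2+/- minus wild type at day 7 on this log2 scale. The brightest measured probe stood for a gene. A gene was called where this probe differed at least 2-fold and every other measured probe of the gene differed in the same direction. With 1 array a side there is no replicate error, no test and no p-value. Repeated spots of 1 probe gave a difference with an SD of 0.19 (187 probes), and different probes of 1 gene scattered with a root-mean-square SD of 0.57 (2306 genes). Fewer cells of a type and less RNA per cell cannot be told apart in such tissue.

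By these rules 511 genes were higher in the Runx2+/- suture (4.14% of the genes compared) and 1616 were lower (13.1%). The median difference over all compared genes was 0.10. The split depended on the scaling: cyclic loess gave 205 higher and 2000 lower, and a normexp background correction before the same percentile scaling gave 3970 higher and 306 lower, with the median of all genes moved to 0.68. Most calls rested on 1 measured probe: 446 of those higher and 1433 of those lower. Among the 2306 genes with 2 or more measured probes, every probe was at least 2-fold higher for 19 (0.824%) and at least 2-fold lower for 102 (4.42%). Where such a gene's brightest probe was 2-fold lower, in 248 genes, another probe pointed the other way in 65. Where it was 2-fold higher, in 77 genes, another probe disagreed in 12.

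Runx2 itself, on chromosome 17, was measured on both arrays by 1 probe of 3, with levels of 2.38 on the day 5 wild type, 1.46 on the day 7 wild type and 1.08 on the Runx2+/- array. Its difference of -0.38 is a 1.30-fold lower signal, smaller than the scatter between probes of a gene, and it was 0.00 after the adjustment for base composition described below. Since the deleted part of Runx2 is not stated, the probe checks nothing about the genotype.

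The 3 arrays differed in brightness and in sex-linked genes. Before scaling, the 75th percentile of intensity was 52.1 for the day 5 wild type, 22.8 for the day 7 wild type and 124 for Runx2+/-, and 40.1%, 29.2% and 47.3% of probes were well above background, so the dimmest array is the control of this comparison. All were on 1 slide and none had a saturated spot. Xist, the RNA of the inactive X chromosome, read 2.45, 1.94 and -3.10, and the Y-linked genes Ddx3y and Eif2s3y read -0.88 and -0.35 on the day 5 wild type, were not above background on the day 7 wild type, and read 1.79 and 2.37 on the Runx2+/- array. The day 5 array thus carried both Xist and Y-linked signal. Genotype and this sex-linked difference cannot be told apart on autosomes.

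Properties of the probes moved with the difference, and the lower calls have to be read beside them. Each probe is a 60-base sequence. A probe is called word-sharing here where it holds a 14-base word that also stands, on either strand, in the probes of 10 or more genes of the array, as simple repeats and interspersed repeats do. There were 588 such probes among the 15270 compared, and their median difference was -0.92, against 0.11 for the rest. Differences of 2-fold or more were seen downward in 46.6% and upward in 0.68% of them, against 12.1% and 4.28% of the rest. The gap was graded: the median was 0.16 where the most shared word stood in 2 genes' probes, -0.30 at 6 to 9 genes, -0.81 at 10 to 49 and -1.15 at 50 or more. Against the day 5 wild type the word-sharing probes as a set were also low, at -0.60, though not every class of simple repeat was.

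The stretches that make these probes alike are shown because several of the largest differences in the comparison stand on them. Each line gives 30 bases of a probe as deposited, 5′ to 3′, with the most shared 14-base word in capitals.
Nanog: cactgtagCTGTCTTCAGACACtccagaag
Zfp872: cactgtagCTGTCTTCAGACACccgaaaag
Medag: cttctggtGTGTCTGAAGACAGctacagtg
Synrg: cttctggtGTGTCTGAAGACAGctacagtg
Galns: ctcttgggAGTGCTGGGATTAAaggcgtgc
Itgam: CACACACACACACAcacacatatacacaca
Cabp5: gcaaaatcAGAGAGAGAGAGAGagagagag
Nanog and Zfp872 share 1 word, and Medag and Synrg hold the same word on the other strand; it stood in the probes of 17 genes. The Nanog probe lies at chr6:122663676-122663735 of mm9, + strand, that of Zfp872 at chr9:22006274-22006333, that of Medag at chr5:150234212-150234271 and that of Synrg at chr11:83855517-83855576. Nanog, a transcription factor of pluripotent cells, read 4.30 on the day 5 wild type, 5.32 on the day 7 wild type and 2.11 on the Runx2+/- array, a difference of -3.21. Zfp872 differed by -3.54, Medag by -1.53 and Synrg by -1.36. The CA run of Itgam, an integrin chain of myeloid cells, stood in the probes of 131 genes, and Itgam differed by -2.04.

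Low values were frequent among probes with simple repeats. Probes with a run of GGA units (5 or more) had a median of -1.77, and all 22 of them were 2-fold lower. Those with GAA runs had a median of -1.65 over 46 probes. CA or TG runs (8 or more units) had -0.84 over 104 probes, and GA or TC runs -1.23 over 16. Against the day 5 wild type GAA runs were low too, at -2.15, and so were GGA runs. There CA or TG runs were at 0.15 and GA or TC runs at -0.026. For CA or TG and GA or TC runs the day 7 wild type was the high array, with medians 0.946 and 0.999 above day 5. In 125 genes a word-sharing probe could be set against another probe of the same gene. The median was -0.79 at the first kind and 0.02 at the second, and 49 genes were 2-fold lower at the first against 20 at the second. The word-sharing probe was the lower one in 89 of the 125, and some read higher, such as that of Itga6 at 1.45. Cat, which encodes catalase, differed by -2.04 at a CA-run probe and by -0.35 at its other probe.

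**Figure D1:**
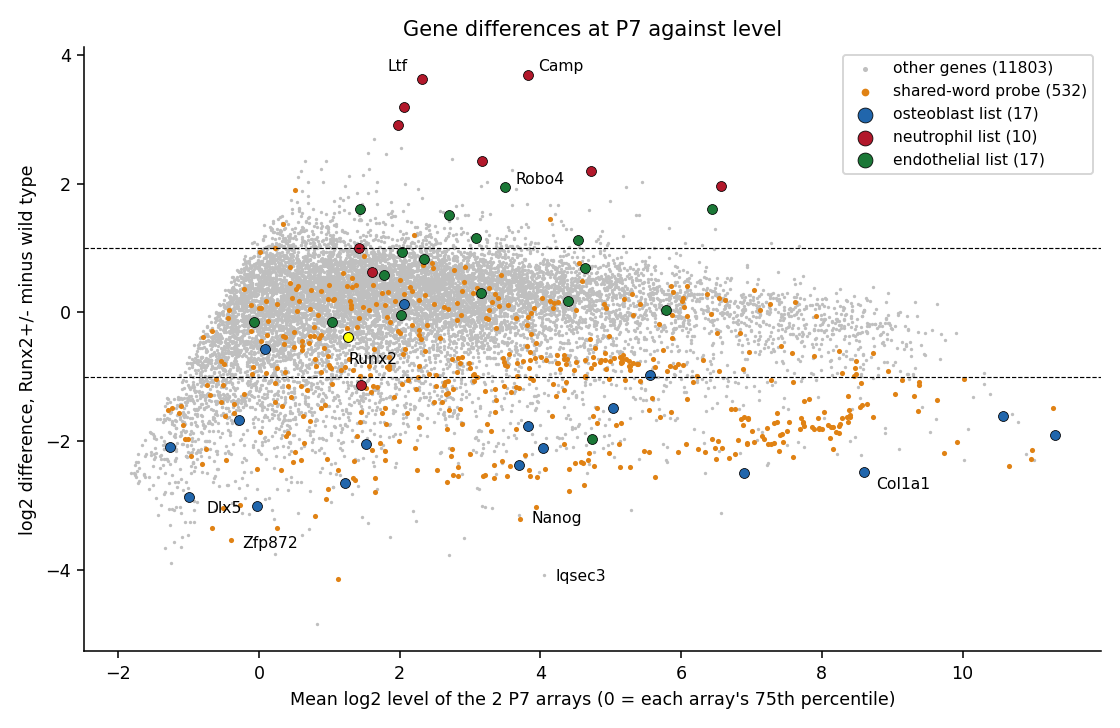
Difference at day 7 (vertical axis, log2, Runx2+/- minus wild type) against the mean log2 level of the 2 day 7 arrays (horizontal axis), 1 point a gene; dashed lines mark 2-fold. The 532 genes whose brightest probe is word-sharing (orange) lie mostly below 0, some in bands near -1 and -2 at high level; 16 of the 17 osteoblast genes (blue) lie below 0, the 10 neutrophil genes without such a probe (red) include the highest points, endothelial genes (green) lie mostly above 0, and Runx2 is yellow.

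Base composition also moved with the difference. Among probes without a shared word, the median was 0.37 for probes with 21 to 23 G or C bases, 0.05 for 27 to 29, -0.38 for 33 to 35 and -1.42 for 36 or more, where 72.5% of the 334 probes were 2-fold lower. Against the day 5 array the same classes gave 0.44, 0.02, -0.23 and -1.02, whereas the 2 wild-type arrays differed from each other by 0.09, 0.01, 0.14 and 0.41. The composition-adjusted difference used below is a gene's difference minus the median of genes whose probes have the same or a neighbouring number of G and C bases. After it, and without word-sharing probes, 229 of the higher calls (1.94% of 11803 genes) and 1008 of the lower calls (8.54%) were still at least 2-fold. Of these 123 and 501 also lay 2-fold beyond the day 5 wild type. Dim genes leaned low: the dimmest eighth of the compared genes had a median of -0.64 and held 570 of the lower calls and 3 of the higher ones. The lowest level flagged as well above background was -0.69 for the wild type and -3.25 for Runx2+/-, so a gene could be compared when very dim on the second but not on the first. The part of composition, word sharing and brightness in any gene's difference was not tested.

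**Figure D2:**
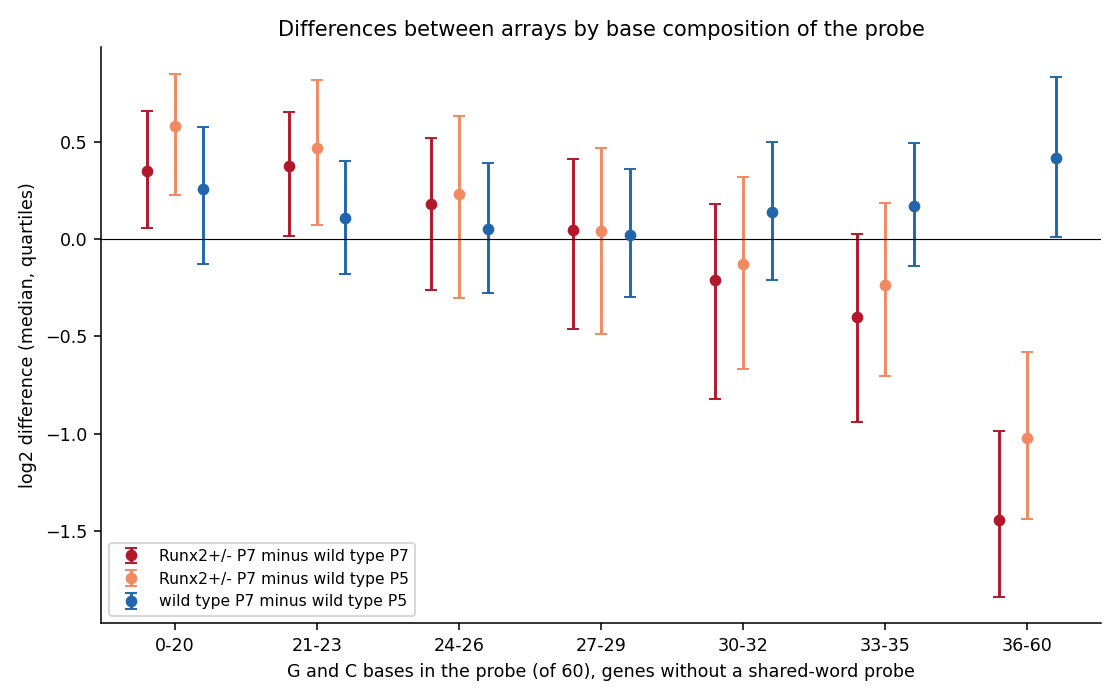
Median (points) and quartiles (bars) of the log2 difference of genes without a word-sharing probe, by the number of G and C bases in the 60-base probe, for 3 pairs of arrays. Both differences that involve the Runx2+/- array are lowest in the richest class, with medians of -1.44 and -1.02, while the difference between the wild-type arrays is 0.42 there.

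Osteoblasts are the cells that Runx2 is best known to act in, whereas osteoclasts come from the blood lineage. Of 17 osteoblast markers compared, 14 were lower (82.4%) and none higher, with a median of -2.05. The shares over all compared genes were 13.1% lower and 4.14% higher. No osteoblast marker stood on a word-sharing probe, and all 14 stayed 2-fold lower after adjustment. Dlx5, a homeobox factor of bone fronts, read 0.87, 1.48 and -1.53 on the day 5 wild-type, day 7 wild-type and Runx2+/- arrays, which is 8.02-fold lower than the day 7 wild type. Bglap3, an osteocalcin-family gene, was lower at both its probes, by -2.34 and -2.44. The Runx2+/- array was thus below both wild-type arrays for these genes. Of 12 osteoclast markers 6 were lower, with a median of -1.09; Acp5, tartrate-resistant acid phosphatase, read 6.49, 7.59 and 5.09 and its 2 probes differed by -2.50 and -2.51, whereas Ctsk, cathepsin K, differed by -0.06.

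**Figure D3:**
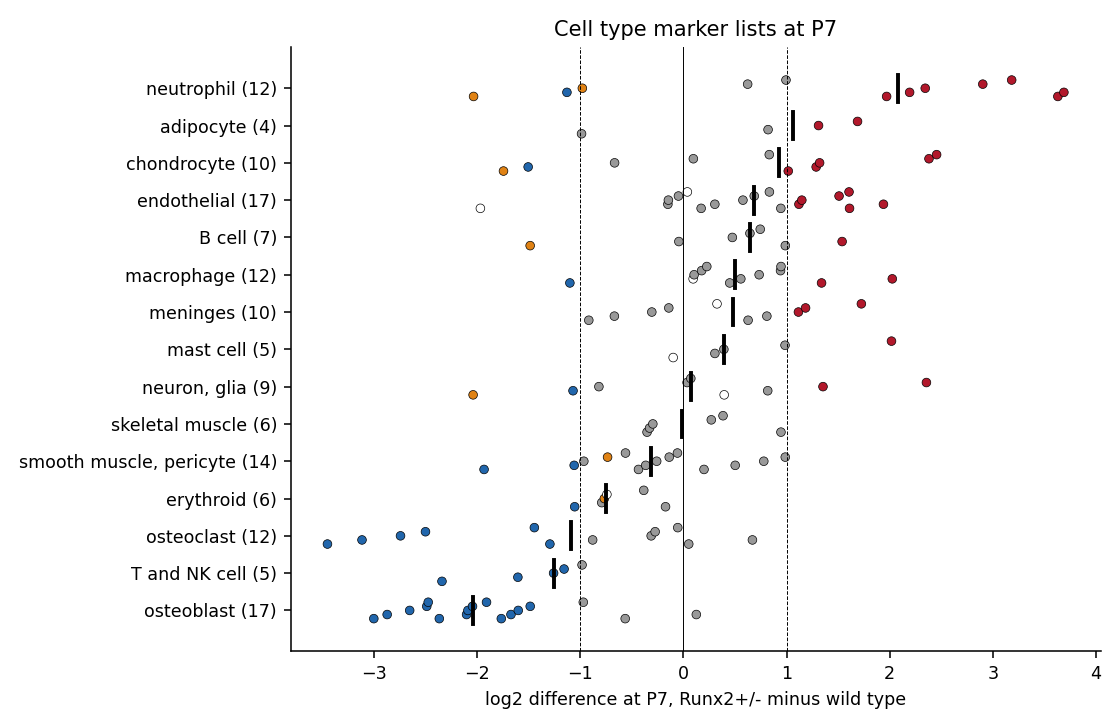
Log2 difference at day 7 (horizontal axis) of each compared member of the cell type marker lists with 4 or more compared members (rows, number compared in brackets); red and blue points are 2-fold higher and lower, orange points stand on word-sharing probes, white points have probes that disagree, and black bars are list medians. Osteoblast markers have the lowest median (-2.05) and neutrophil markers the highest (2.08).

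Several of the named genes encode matrix proteins or their receptors, and they differed in both directions. Tnn, tenascin-W of periosteum and osteogenic mesenchyme, read 4.0 on the day 5 wild type, 5.27 on the day 7 wild type and 2.13 on the Runx2+/- array, 8.82-fold lower on 1 probe. Tnc, tenascin-C, read 4.62, 3.50 and 1.90 and was lower at both its probes, by -1.61 and -1.80. Both tenascins were lowest on the Runx2+/- array. Col22a1, a collagen of tissue junctions, read 4.13, 4.04 and 2.10, and its 2 probes differed by -1.94 and -2.45. Ptprz1, a receptor phosphatase that binds pleiotrophin and tenascins, read 3.55, 2.99 and 1.23, with differences of -1.76 and -1.77 at its 2 probes. Its ligand Ptn, pleiotrophin, read 8.04, 7.71 and 6.50; its difference of -1.21 was -0.96 after the adjustment. Col26a1 went the other way: it read 3.24, 3.79 and 5.08, and was 2.46-fold higher. Col2a1, the main collagen of cartilage, read 0.22, 1.56 and 3.94 (5.21-fold higher), and Epyc, a small proteoglycan of cartilage, read 0.72, 0.57 and 3.03 (5.49-fold higher). In the chondrocyte list 5 of 10 compared members were higher and 2 lower, with a median of 0.92; the lower ones were Col11a2, at -1.51, and Sox5, at -1.75 on a word-sharing probe. After adjustment 3 of the 5 higher calls were left, and with bright probes only the median of the list was -0.29.

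Of 17 endothelial markers compared, 6 were higher (35.3%) and none lower, beside 4.14% and 13.1% of all compared genes. The median of the list was 0.69, or 0.38 against the day 5 wild type, and 4 of the 17 lay below 0. After adjustment 5 of the 6 higher calls were left, all but Flt1 (0.91), and the median was 0.55. Robo4, a guidance receptor of vessels, read 3.18, 2.53 and 4.47 on the day 5 wild-type, day 7 wild-type and Runx2+/- arrays, 3.84-fold higher. Cdh5, vascular endothelial cadherin, read 1.87, 1.94 and 3.45, 2.85-fold higher. The other members called were Egfl7 (1.61), Emcn (1.61), Flt1 (1.15) and Mmrn2 (1.12). For these 6 genes the Runx2+/- array lay above both wild-type arrays, although Mmrn2 exceeded the day 5 level by 0.34. Other defining markers did not differ 2-fold, among them Pecam1 at -0.15, Tie1 at -0.05 and Cldn5 at 0.17. Kdr, the main receptor of vascular endothelial growth factor, could not be called because its 2 probes opposed each other: one, with 21 G or C bases, differed by 1.87, and the other, with 33, by -1.97. The first reads 2.56, 1.64 and 3.51 and the second 5.48, 5.72 and 3.75. Connexins of arteries were lower: Gja5 read 2.0, 2.76 and 0.06, 6.51-fold lower, and Gja4 read 3.38, 3.43 and 2.27, 2.24-fold lower, or -0.78 after adjustment. F11r, the junctional adhesion molecule A of endothelium, epithelium and platelets, was 3.63-fold higher (1.38, 0.46 and 2.32).

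In the complement and coagulation list 5 of 22 were higher (22.7%) and 1 lower (4.5%), with a median of 0.35. Over all genes the shares were 4.14% and 13.1%. After adjustment 4 of the 5 higher calls were left, all but Thbd. Tfpi, the inhibitor of the tissue factor pathway, read 1.41, 1.46 and 2.86, and its 3 probes differed by 0.62, 1.09 and 1.40. Thbd, thrombomodulin, read 1.87, 1.82 and 3.02, and Pros1, protein S, read 1.22, 1.06 and 2.26; these 3 restrain clotting. All 3 were near-equal on the wild-type arrays and higher on the Runx2+/- array. F13a1, the fibrin cross-linking factor that macrophages and megakaryocytes make, read 2.20, 2.21 and 3.52, 2.48-fold higher. The 1 lower member, F10, coagulation factor X, differed by -2.11 on a word-sharing probe. Its other probe, without a shared word, differed by 1.74 but was not above background on the day 7 wild type. Thbs1, the matrix glycoprotein thrombospondin-1, read 2.35, 2.76 and 4.42, 3.17-fold higher.

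The neutrophil list had the highest median of all the lists, but only against the day 7 wild type. Of 12 neutrophil markers 7 were higher (58.3%) and 2 lower (16.7%), beside 4.14% and 13.1% of all compared genes. These markers had a median of 2.08, and one of -1.06 against the day 5 wild type. Camp, the cathelicidin antimicrobial peptide, read 5.23 on day 5 wild type, 1.98 on day 7 wild type and 5.67 on the Runx2+/- array, 12.9-fold above the day 7 wild type at its brightest probe, with differences of 3.69 and 3.84 at its 2 probes. Ltf, lactoferrin, read 4.94, 0.51 and 4.14, and S100a9, a calcium-binding alarmin, read 9.14, 5.58 and 7.55. The day 7 wild-type array was thus the low one of the 3, and for 5 of the 7 higher markers the Runx2+/- array lay between the wild-type arrays, the others being Camp and Chil3. The 2 lower members were Elane, neutrophil elastase, at -1.13, and Itgam, on its CA-run probe.

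Stefins, small cystatin-family inhibitors of cysteine proteases that lie in a row on chromosome 16, followed the neutrophil genes. All 8 stefin genes compared (chosen after their values were seen, where not named by the rule) were higher: Stfa3 by 2.21, Cstdc5 by 2.03, Cstdc4 by 2.03, Stfa2l1 by 1.96, Stfa1 by 1.95, Csta2 by 1.68, Stfa2 by 1.66 and Csta3 by 1.18. Stfa1 read 7.51, 4.24 and 6.18 on the 3 arrays. All 8 lay below their day 5 wild-type levels on the Runx2+/- array. These genes are close copies, and the probes of Csta2, Cstdc4, Cstdc5 and Stfa3 each share a run of at least 20 bases with a probe of another stefin, so their signals may not be separate. In the protease inhibitor list 5 of 12 were higher (41.7%) and none lower, with a median of 0.26. The shares over all compared genes were 4.14% higher and 13.1% lower. Of the 5 higher ones, 3 were stefins. The others were Slpi, the secretory leukocyte inhibitor, which read 3.88, -0.23 and 2.0, and Serpinb1a, an inhibitor of neutrophil serine proteases, which read 1.35, 0.24 and 2.20. Slpi thus lay below its day 5 level and Serpinb1a above it.

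The hexamer TGTGGT, which reads ACCACA on the other strand, is the core of the motif Runx proteins bind, and it was counted on both strands in the 250 bases before gene starts (RefSeq promoters, GRCm38.p6; 1 promoter a gene). It stood in 10.4% of 606 promoters of lower genes and in 12.8% of 344 of higher genes, beside 10.5% of 7512 promoters of all compared genes and 14.1% of 25748 autosomal promoters. Not every gene had a promoter in the table. Among the lower osteoblast markers 3 of 8 such promoters held it when 1 start was taken for each gene. Of the 8 stefin promoters 7 held it as well, the exception being Csta3, so it stood before genes of both directions. The lines below give 40 bases round the match nearest the upstream end, first for 4 lower genes of the osteoblast list and then for 5 higher stefins, with the hexamer in capitals.
Bglap: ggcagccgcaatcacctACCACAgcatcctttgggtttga
Dmp1: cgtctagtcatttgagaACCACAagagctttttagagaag
Spp1: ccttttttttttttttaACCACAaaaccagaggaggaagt
Mepe: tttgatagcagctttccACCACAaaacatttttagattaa
Stfa1: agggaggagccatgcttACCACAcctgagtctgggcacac
Cstdc5: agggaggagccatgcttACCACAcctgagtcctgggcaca
Stfa2: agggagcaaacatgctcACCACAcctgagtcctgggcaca
Stfa3: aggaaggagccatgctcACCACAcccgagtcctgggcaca
Stfa2l1: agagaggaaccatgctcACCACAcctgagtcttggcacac
The window of Bglap, osteocalcin, is chr3:88384576-88384615 on the - strand, with the match 132 bases before the start, and that of Dmp1, a matrix protein of osteocytes, is chr5:104202436-104202475 on the + strand. The Stfa1 window is chr16:36276926-36276965 on the + strand and that of Stfa3 is chr16:36455578-36455617 on the - strand. The stefin stretches are near copies of each other, so they count as 1 sequence rather than 5. A match is a description of letters and not a binding site.

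All 5 markers of T and NK cells that could be compared were below 0, with a median of -1.26. Of them 4 were called lower (80.0%), beside 13.1% of all compared genes called lower and 4.14% called higher. Nkg7, a granule membrane protein of cytotoxic cells, read 2.64, 4.0 and 1.66, 5.07-fold below the day 7 wild type. Prf1, perforin, read -0.36, -0.08 and -1.69, and Thy1, which fibroblasts also carry, read 4.25, 4.68 and 3.42. Each of these was lowest on the Runx2+/- array. Most of the defining markers were not compared: 5, among them Lck, were measured on the Runx2+/- array only and 8, among them Cd8a, on neither. Macrophage genes had a median of 0.50. Of 12 compared, 2 were called higher (16.7%), Lyz2, lysozyme, at 2.03 and Mrc1, the mannose receptor, at 1.34. Cd68, at -1.10, was called lower (8.33%). After adjustment the call of Lyz2 was left, and those of Mrc1 and Cd68 were not. Against the day 5 wild type, without adjustment, Mrc1 was higher by 1.48, whereas Lyz2 was at -0.25 and Cd68 at 0.11. The B cell list had a median of 0.64 over 7 compared members, 5 of them above 0; Vpreb3, a gene of early B cells, was called higher at 1.54, and Cd22 was called lower at -1.49 on a word-sharing probe.

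Cxcl12, the chemokine that retains blood stem cells in marrow and is made by mesenchymal stroma, read 4.44 on the day 5 wild type, 4.61 on the day 7 wild type and 6.12 on the Runx2+/- array, and its 2 probes differed by 1.52 and 1.54. Igfbp2, which binds insulin-like growth factors and is abundant in meninges, read 3.26, 4.12 and 5.85, with differences of 1.41 and 1.73. Both exceeded each wild-type array by more than the scatter between probes (0.57), which does not measure variation between mice or arrays. The wild-type arrays themselves differed for Igfbp2, at 3.26 and 4.12. In the meninges list 3 of 10 were higher, Igfbp2, Cldn11 (1.18) and Foxd1 (1.12), with a median of 0.48; after adjustment only Igfbp2 stayed 2-fold. Slc1a3, the glial glutamate transporter, read 0.13, -0.53 and 1.83, 5.12-fold higher. Its day 7 wild-type level was close to the lowest flagged on that array, -0.69. Penk, the enkephalin precursor, read 2.51, 2.42 and 3.86, 2.73-fold higher.

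Other genes with agreeing probes on the higher side were Limch1, an actin-binding protein (3.97-fold; 1.58, 1.08 and 3.07), Mfng, a glycosyltransferase that modifies Notch (3.76-fold; 2.14, 1.31 and 3.22), and Sult1a1, a phenol sulfotransferase (3.16-fold; 2.58, 2.06 and 3.72). NEAT2, the array's name for the long noncoding RNA Malat1, was higher at 3 probes, by 1.71, 2.12 and 2.23. Mgst1, a microsomal glutathione transferase, was 3.30-fold higher, from a dim day 7 wild-type level of -0.32 (lowest flagged there -0.69). Myo1f, a myosin of leukocytes, was 2.67-fold higher but 0.50 below the day 5 wild type on the log2 scale. Prmt1, an arginine methyltransferase, was 2.90-fold above the day 7 wild type and within 0.15 of the day 5 wild type. Tspan18, a tetraspanin, and Pde2a, a cyclic nucleotide phosphodiesterase, were 3.76-fold and 3.16-fold higher on 1 probe each.

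Nerve-related secreted factors differed in both directions. Nrtn, neurturin, differed by -1.32, which the adjustment for its G- and C-rich probe took to -0.07. Tac1, the substance P precursor, read -2.38, 0.28 and -2.22, so it was 5.65-fold below the day 7 wild type but at the level of the day 5 wild type. The list as a whole had 4 of 14 lower (28.6%, beside 13.1% of all genes), 1 higher and a median of -0.30. After adjustment 2 of the 4 lower calls were left. Guidance molecules (semaphorins, slits, netrins and their receptors) had 4 of 30 lower (13.3%) and 1 higher (3.33%), with a median of -0.03. These shares were near the 13.1% and 4.14% of all compared genes. Of the lower ones Dcc and Sema6d stood on word-sharing probes, though the other probe of Sema6d differed by -2.79. Among the called genes whose brightest probe was not word-sharing, Unc5b, a netrin receptor, at -1.15, was the only one to stay 2-fold after adjustment.

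Of 18 voltage-gated and related channel genes compared, 15 were below 0 and 3 were called lower, a share of 16.7% beside the 13.1% of all genes, with a median of -0.60; only Scn3b was left after adjustment and without word-sharing probes. Scn3b, a sodium channel beta subunit, read 5.24, 4.41 and 2.33, 4.23-fold lower; the most shared word of its probe stood in 7 genes' probes, just under the limit of 10. Scn8a, a sodium channel, differed by -1.61 on a word-sharing probe and lay 0.47 above the day 5 array. Genes of acid-base balance had 3 of 11 lower (27.3%) and a median of -0.80, which was 0.15 under normexp with the 75th percentile. With the day 5 wild type as control the medians of the channel and acid-base lists were 0.15 and 0.076. Car4, a membrane-bound carbonic anhydrase, read 3.23, 4.20 and 2.16, 4.14-fold lower, and Car7, a cytosolic one, read 2.02, 1.64 and -0.05, 3.23-fold lower. Slc4a2, the anion exchanger osteoclasts use, read 2.16, 3.56 and 2.33, so it equalled the day 5 level within 0.17. Car2 differed by 0.06, and the 2 probes of Slc4a7 opposed each other, at -2.88 and 0.77.

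**Figure D4:**
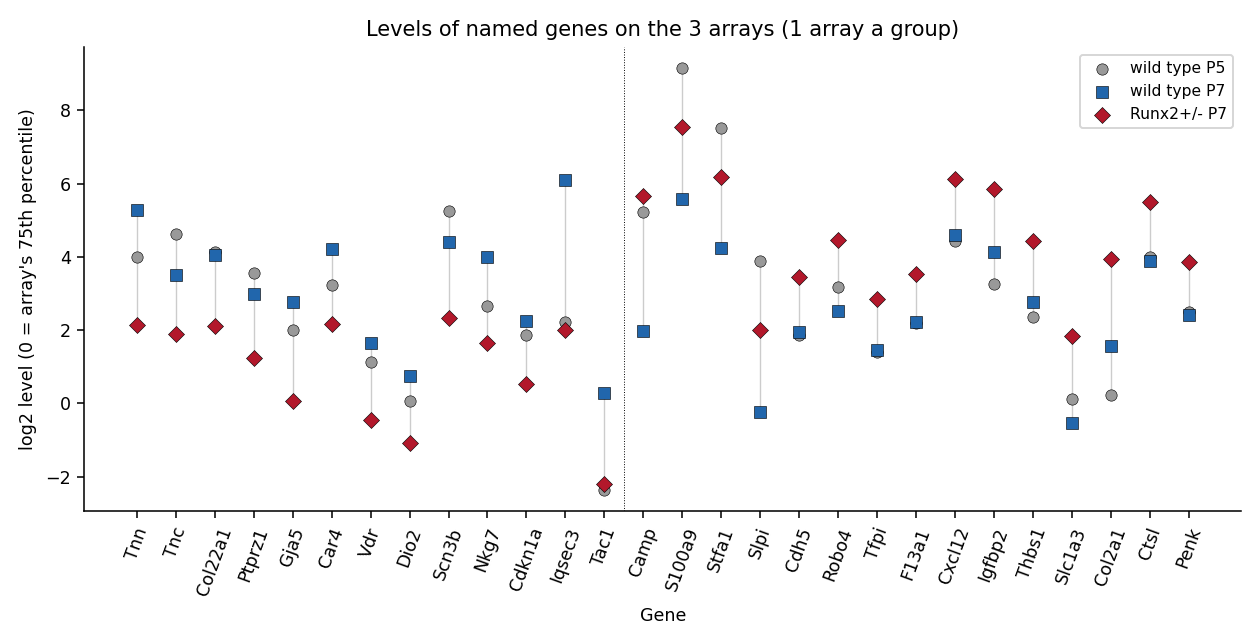
Log2 level (vertical axis, 0 is the array's 75th percentile) of 28 named genes on the 3 arrays, 1 array a group; lower genes stand left of the dotted line and higher genes right of it. The Runx2+/- array (diamonds) is below both wild-type arrays for Tnn (2.13) and above both for Cxcl12 (6.12), while for Iqsec3, Tac1 and S100a9 the day 7 wild type (squares) lies apart from both other arrays.

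Hormone and vitamin signalling genes differed without a common direction. Vdr, the vitamin D receptor, read 1.13, 1.65 and -0.46, 4.30-fold lower, and Dio2, which activates thyroid hormone, read 0.07, 0.73 and -1.09, 3.54-fold lower. Hsd17b11, a steroid dehydrogenase, was 2.60-fold higher (1.35, 0.85 and 2.23), and Cyp26b1, which degrades retinoic acid, was 2.38-fold higher (2.63, 2.27 and 3.52). The first pair lay below both wild-type arrays and the second above both. Rarb, a retinoic acid receptor, and Nr2f2, an orphan nuclear receptor of veins and mesenchyme, differed by 1.12 and 1.02, and by 0.71 and 0.61 after adjustment. The list had 3 of 20 higher, 2 lower and a median of 0.00. Over all compared genes 4.14% were higher and 13.1% lower. After adjustment 1 of the 3 higher calls and the 2 lower calls were left, and the median of the list was -0.36.

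Of energy metabolism, the TCA cycle and fatty acid lists were examined. All 22 genes of the TCA cycle list were compared and none differed 2-fold; 18 lay above 0 and the median was 0.36, or 0.13 after adjustment. In the fatty acid list 3 of 23 were higher, 1 lower and 21 above 0, with a median of 0.39. Cd36, the fatty acid translocase of endothelium, macrophages and fat cells, read 1.18, 0.38 and 2.16, 3.45-fold higher. Pparg, the master factor of fat cells, read 1.46, 0.62 and 2.31, 3.22-fold higher, and Ppara, which drives fatty acid oxidation, read 1.73, 2.41 and 1.06, 2.55-fold lower. Adipoq and Plin1, which define fat cells, were not above background on either day 7 array. Lysosome and autophagy genes had 32 of 37 above 0 and a median of 0.49, or 0.29 after adjustment. Of the 37, 2 were called higher (5.41%) and 1 lower (2.70%), beside 4.14% and 13.1% of all genes. Ctsl, cathepsin L, read 3.99, 3.89 and 5.49, 3.02-fold higher.

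Stress and cell cycle genes held a few large differences. Cdkn1a, the cyclin-dependent kinase inhibitor p21, read 1.87, 2.26 and 0.54, 3.30-fold lower, and was the only one of 29 cell cycle genes to be called; 26 of the 29 lay above 0 and their median was 0.36. In the antioxidant and metallothionein list 4 of 33 were lower (12.1%, near the 13.1% of all genes), 1 was higher and 24 lay above 0, with a median of 0.35. Mt3, Mt2 and Gpx3, 2 metallothioneins and the plasma glutathione peroxidase, were lower by -1.70, -1.17 and -1.18; Gpx3 lay at its day 5 level, within 0.07. Creb3l1, a transcription factor of collagen secretion, differed by -1.09 and Tram2, a translocon protein for collagen, by -1.08, whereas the endoplasmic reticulum list had a median of 0.34 with 23 of 32 above 0. The amino acid transporter Slc38a2 was 2.68-fold higher and the folate enzyme Mthfd2 2.47-fold lower.

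**Figure D5:**
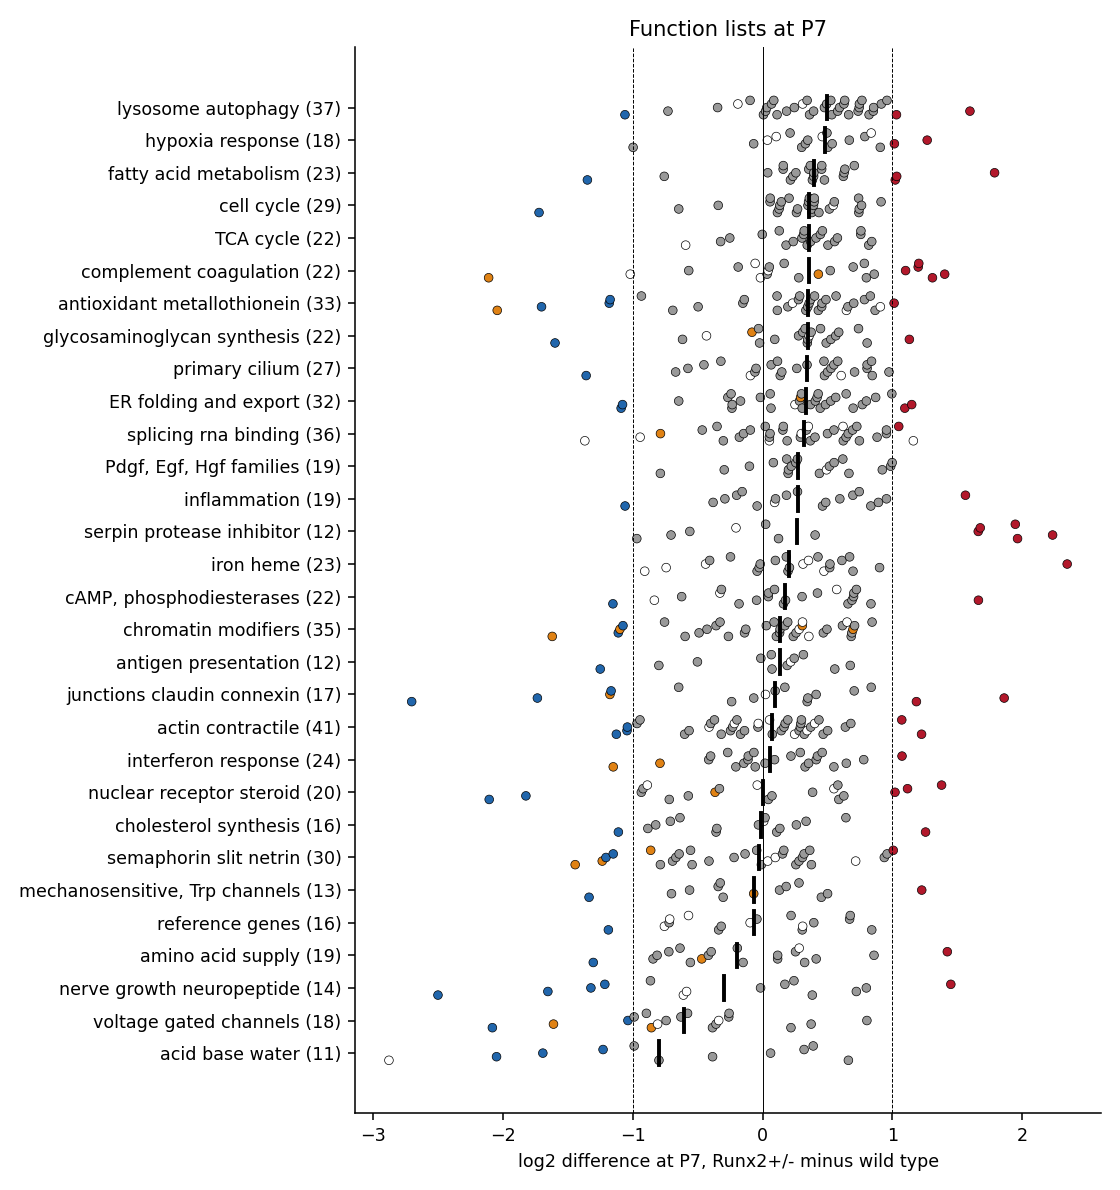
Log2 difference at day 7 (horizontal axis) of each compared member of the 30 function lists (rows, number compared in brackets), with colours and bars as in the plot of marker lists. In 28 lists the median lies between -0.5 and 0.5; acid-base genes (-0.80) and voltage-gated channels (-0.60) lie lower.

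Families taken by name showed no gene group as far from 0 as the bone cells, apart from families that were hardly measured. Of 128 solute carriers compared, 10 were higher (7.81%) and 17 lower (13.3%), with a median of 0.17. Over all compared genes the shares were 4.14% and 13.1%. The largest called without a word-sharing probe were Slc1a3, above, and Slc37a2, a phosphate-linked sugar transporter of macrophages and osteoclasts, at -2.46 (-1.08, 0.31 and -2.15). Of 167 Zfp zinc finger genes 7 were higher (4.19%) and 17 lower (10.2%), and 16 of the 167 stood on word-sharing probes. After adjustment and without word-sharing probes 1 of the 7 and 11 of the 17 were left. Keratins and keratin-associated proteins had 16 of 103 genes compared, all below 0 and 8 of them 2-fold, with a median of -0.98; after adjustment and without word-sharing probes 4 of the 8 were left, and the adjusted median was -0.74. Krtap19-5 was lower at both its probes, by -1.73 and -1.75. Krt14, which defines epidermis, was not above background on either day 7 array. Only 9 of 1071 olfactory receptors and 4 of 252 vomeronasal receptors could be compared, and 3 and 4 of them were lower. Rab13, a GTPase of tight junctions, was 3.09-fold higher (0.09, -0.25 and 1.38), from a dim day 7 wild-type level (lowest flagged there -0.69).

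Many of the largest lower differences on bright single probes were of the word-sharing kind. Of 358 such genes above the median level on both arrays, 132 had a word-sharing probe, as did 7 of the 12 largest: Nanog, Tdgf1, St6galnac1, Galns, Ddx25, Pign and Cd300lf, which differed by -2.40 to -3.21. Other probes of Cd300lf, without a shared word, differed by 2.35 and 1.48 but were not above background on the day 7 wild type. Those of Nanog, Tdgf1, St6galnac1 and Pign were not above background on either day 7 array. The other 5 of the 12 largest were Iqsec3, Tnn, Inafm2, Bglap2 and Col1a1. Iqsec3, a guanine exchange factor of inhibitory synapses, read 2.21, 6.09 and 2.0, so the day 7 wild type was the array that stood apart. Inafm2 read 4.75, 6.82 and 3.76, and its difference of -3.06 was -1.54 after adjustment. Col1a1, type I collagen, read 9.18, 9.84 and 7.37; its probe is at chr11:94813115-94813174 of mm9, + strand, and its most shared word stood in 9 genes' probes. Among genes lower at 2 or more probes, Medag, Timmdc1 and Vash1 stood on word-sharing probes and Prpmp5, at -2.07, was -0.55 after adjustment. Zfp74 and Ppfia3, a scaffold of presynaptic terminals, were lower by -1.81 and -1.85 at their brightest probes, and Zfp74 lay within 0.28 of its day 5 level.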

How the data were processed

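Total RNA of 3 suture samples, 1 array each, was measured on 1-colour 60-mer arrays. Spot intensity values were background-subtracted by Agilent's Feature Extraction software; per the file headers its version was 10.7.1.1, whereas the submitters' processing notes name 9.5.1.1. The authors' deposited table holds linear intensity values whose 3 columns have the same sorted values; the steps behind it are not stated in those sources. From the deposited spots, control and outlier spots were dropped, spots averaged per probe, log2 taken and the array's 75th percentile subtracted (Python 3.11.15, pandas 2.3.3; R 4.3.3 with limma 3.58.1 for alternatives). Single arrays allow no SD and no test, and signal over background limits the precision. Named genes were the 12 largest per direction among genes called by 2 or more probes, the 12 largest bright genes with 1 probe, up to 6 called members a list with any called against the list's median, and Runx2; others were chosen after their values were seen. Members and lists were chosen with earlier results of these data known, and the measures of shared words and base composition after seeing the data. The calling steps were run on simulated arrays with known changes to check the code, which says nothing of replicate error. Some genes that the rule names are not reported here, though list counts and medians include them.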

Additional observations from a re-analysis of the deposited data

Results flagged for a closer look

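Sex-linked genes, which the comparison leaves out, differed between the day 7 arrays. Xist was at -3.10 on the Runx2+/- array, against 1.94 on the day 7 wild type. On the Runx2+/- array Ddx3y was at 1.79 and Eif2s3y at 2.37, and neither was above background on the day 7 wild type. The part of this in the autosomal differences was not tested.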

How the results depend on the processing

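Genes were called 2127 times in all (511 higher, 1616 lower; by 2 or more probes 121, 19 and 102), and 15 lists had medians far from that of all genes. Quantile normalization, median scaling and the authors' deposited values kept all of these counts within 1.5 times. Cyclic loess gave 205 higher, 11 by 2 or more probes. Normexp with the 75th percentile gave 4276 (3970 higher, 306 lower), by 2 or more probes 409 (403 and 6), and 25 lists; normexp with median scaling gave 25 lists. Bright probes alone gave 661 (164 and 497) and 29 (9 and 20). No filter gave 16289 (1282 and 15007), 3444 (52 and 3392) and 49 lists. A 1.5-fold limit gave 4688 (2146 and 2542) and 343 (130 and 213); 3-fold gave 846 (68 and 778) and 41 (5 and 36). The day 5 wild type as control gave 1124 higher, 203 by 2 or more probes and 54 of these higher. Chosen after seeing the data, the composition adjustment gave 303 higher, or 300 without word-sharing probes, and leaving out the dimmest eighth gave 1046 lower. The cause was not tested, beyond the fewer or more genes that a filter or limit admits.

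Signs turned as follows. Under normexp with the 75th percentile, which moved the median of all genes to 0.68, the erythroid median was 0.15 and the acid-base median 0.15, and Cd68 was 0.082, Thy1 0.051, Creb3l1 0.14, Tram2 0.060, Cd74 0.0032, Ptn 0.12, Gpx3 0.11, Cfl1 0.97, Pfn1 0.19, Olfr544 0.18 and Tmem158 0.023. Under normexp with median scaling the B cell median was -0.20, Dgat1 -0.022, Cfl1 0.26, Cyp1b1 -0.16 and Gpr17 -0.12. With bright probes the chondrocyte median was -0.29. With no filter the adipocyte median was -1.04, that of adhesion receptors -0.67 and Zfp84 0.48. Slc10a1 was 0.43 after quantile normalization and 0.33 in the authors' deposited table. Polr2a was 0.060 and Tmem158 0.38 after composition adjustment, and without word-sharing probes as well Polr2a was 0.060 and the epidermis median 0.37. Against the day 5 wild type the medians were -1.06 for neutrophil genes, 0.15 for voltage-gated channels and 0.076 for acid-base genes. There Myo1f was -0.50, Lcn2 -1.41, S100a8 -1.53, S100a9 -1.60, Ltf -0.80, Ngp -1.01, Lyz2 -0.25, Slpi -1.88, Fabp5 -0.30, Stfa1 -1.32, Stfa2 -1.57, Stfa2l1 -1.53, Stfa3 -1.23, Csta2 -1.82, Cstdc4 -1.44 and Cstdc5 -1.30. In the same setting Cd68 was 0.11, Cd74 0.061, Scn8a 0.47, Piezo2 0.57, Sema6d 0.26, Gpx3 0.073, Pkp3 0.091, Slc4a2 0.17, Zfp84 0.88, Zfp791 0.14, Cyp2d11 0.066 and Tmem185b 1.13. No paired analysis was possible because each group has 1 array.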
